A study of Mus musculus with 50 samples.

Results

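RTS0064947, RTS0075359 and RTS0064300 are 3 of the 20175 transcriptome probes counted in mouse lung sections after ozone. They were picked by name because earlier tests of the same data had called each of them higher in injured than in neighbouring peri-injured regions, in macrophage segments and in non-immune segments alike. The injury contrast is therefore described below without a test. The contrast between segments was not the one that chose them, but it and the comparisons between sections use the same injured regions, so they are not free of that choice.

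The assay was GeoMx digital spatial profiling, in which probes carrying a barcode bind RNA in a stained tissue section and the barcodes released from a chosen area are counted by sequencing. Per the labels, lungs were perfused with saline, inflated with formalin and embedded in paraffin, and sections were stained for CD45, CD68 and DNA. CD45 is a surface protein of leukocytes and CD68 a lysosomal protein of macrophages. Each region was captured as a CD68+ segment and a CD45- segment, which are referred to here as macrophage and non-immune segments. Both proteins set the segments, so neither is a finding between them. The sources used here do not say by what features a region was classed as injured, peri-injured or healthy.

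There were 4 sections, each with 1 study identifier, which was taken here to mean 1 animal per section. All animals were kept for life in a germ free facility. The wild type air section came from a 12-week-old mouse with wild type surfactant protein C (SP-C) kept in filtered air, with 4 healthy regions. The wild type ozone section came from a 12-week-old mouse of the same genotype, taken 72 h after a whole body exposure to 0.8 ppm ozone for 3 h, with 4 injured and 4 peri-injured regions. The young mutant section came from a 12-week-old SP-CI73T mutant mouse and the old mutant section from an 80-week-old one, both after the same exposure, with 3 injured and 3 peri-injured regions each. No mutant section in air was among the samples, and both wild type sections shared one collection plate and both mutant sections the other, so plate and genotype cannot be told apart. Air samples carry a treatment label that names ozone, but they are taken as air here because their titles and time point give air.

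As background, ozone is an oxidant gas that damages epithelium where the airways meet the alveoli, and macrophages gather at such sites. Alveolar type 2 cells make surfactant protein C, and the I73T change in it is a cause of inherited lung fibrosis in people. The files list probes by RTS identifier with no gene name, and none of the reference tables pairs the 2, so the transcripts behind these 3 probes are not named, no role is given for them, and no probe sequence is shown. The labelled segment types could not be checked against marker genes for the same reason. Because probes differ in how well they bind, levels are compared below within a probe and never between probes.

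CD68+ segments held 20043 to 101968 counts and CD45- segments 32705 to 300708. A level resting on 3 counts lies at 33.5 to 102 CPM (counts scaled to 1e6 per segment) in CD68+ segments and at 11.6 to 75.2 CPM in CD45- segments, on the scaled library sizes used for all levels here. Over the 48 segments RTS0064300 gave 2662 counts and was found in every segment. RTS0064947 gave 1145 counts and was at 0 in 4 segments, and RTS0075359 gave 425 counts and was at 0 in 9. The 2 no template controls held 4 and 229 counts, none of them from these probes. Levels are CPM on library sizes scaled by trimmed mean of M values (TMM), and an SD is between regions of 1 animal. Intervals of ratios are exact 95% intervals that cover counting error only, not the spread between regions or animals. In these summed counts, more cells of a type and more RNA per cell cannot be told apart.

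RTS0064947 was high in injured regions of the mutant sections and near its air level in the wild type ozone section. Its CD68+ level in injured regions was 2694 ± 986 CPM in the young mutant animal (SD, n = 3), 496 ± 273 CPM in the old mutant animal (SD, n = 3) and 60.8 ± 22.9 CPM in the wild type animal after ozone (SD, n = 4). In the air section it was 39.8 ± 33.1 CPM (SD, n = 4), from 7 counts in all. In CD45- segments the same groups stood at 1051 ± 448, 402 ± 172, 27.6 ± 21.2 and 35.0 ± 14.6 CPM. The young mutant injured regions led the order of group means in both segment types, followed by the old mutant injured regions, and all wild type groups lay below 100 CPM.

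Region by region, the 3 injured CD68+ segments of the young mutant section held 2628, 1742 and 3712 CPM, in regions 1, 2 and 3. Its peri-injured CD68+ segments held 171, 29.2 and 45.1 CPM, in regions 4, 5 and 6. Every injured region thus stood above every peri-injured one. The matching CD45- segments held 1382, 1229 and 541 CPM in injured regions and 77.5, 63.3 and 80.1 CPM in peri-injured regions, again with no overlap. Region 3 had the top CD68+ value and the lowest CD45- value of the injured regions in that animal.

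In the old mutant section, injured CD68+ segments held 468, 238 and 782 CPM, in regions 8, 10 and 12, and peri-injured ones 110.3, 79.6 and 0 CPM, in regions 7, 9 and 11. The groups did not overlap. Injured CD45- segments held 589.9, 251 and 366 CPM and peri-injured ones 374, 17.2 and 36.9 CPM. Here peri-injured region 7, with 22 counts, reached into the injured range, and the other peri-injured regions did not.

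In the wild type ozone section the counts were few. Injured CD68+ segments held 54.3, 94.5, 43.8 and 50.5 CPM from 14 counts in all, in regions 2, 3, 4 and 9, against 30.5, 0, 38.9 and 0 CPM from 4 counts in peri-injured regions 5, 6, 7 and 15. Injured CD45- segments held 19.3, 6.89, 27.6 and 56.8 CPM and peri-injured ones 28.1, 10.6, 0 and 10.6 CPM. The CD68+ groups did not overlap and the CD45- groups did. Air regions 8, 10, 11 and 12 held 18.3, 88.97, 29.3 and 22.7 CPM in CD68+ and 22.5, 38.0, 54.3 and 25.1 CPM in CD45- segments. These overlapped the wild type ozone injured values in both segment types.

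RTS0075359 followed the mutant sections too, but its injured regions in the young mutant section were not alike. Injured CD68+ segments there held 1022, 444 and 25.1 CPM in regions 1, 2 and 3, and the last value came from 1 count. The CD45- segments of the same regions held 279, 329.9 and 0 CPM. Regions 1 and 2 were high in both segments and region 3 was at or near 0 in both, although region 3 held the top CD68+ value of RTS0064947. Peri-injured regions 4, 5 and 6 held 0, 0 and 45.1 CPM in CD68+ and 11.1, 31.6 and 20.0 CPM in CD45- segments, so region 3 lay within the peri-injured range or below it.

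In the old mutant section all injured regions stood above the peri-injured ones for RTS0075359. Regions 8, 10 and 12 held 301, 333.2 and 1419 CPM in CD68+ and 137, 189 and 385 CPM in CD45- segments. Peri-injured regions 7, 9 and 11 held 22.1, 39.8 and 0 CPM and 51.1, 17.2 and 0 CPM, respectively. Region 12 was the highest in both segment types.

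The wild type ozone section showed no such separation for RTS0075359. Injured CD68+ segments held 54.3, 94.5, 29.2 and 67.3 CPM and peri-injured ones 45.7, 22.3, 77.7 and 99.5 CPM, with means of 61.3 ± 27.2 and 61.3 ± 34.1 CPM (SD, n = 4 each). In CD45- segments injured regions held 34.7, 34.4, 41.3 and 64.9 CPM and peri-injured ones 18.7, 0, 0 and 53.1 CPM. Of these injured CD45- segments, 1 stood above all peri-injured ones. Air regions held 0, 44.5, 58.6 and 90.8 CPM in CD68+ and 22.5, 19.0, 18.1 and 0 CPM in CD45- segments, from 8 and 3 counts.

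RTS0064300 was the probe with the most counts, and the wild type ozone section had more of it in injured regions than the air section. Injured CD68+ segments of the wild type ozone section held 1013, 246, 379.6 and 269 CPM in regions 2, 3, 4 and 9. Peri-injured regions 5, 6, 7 and 15 held 534, 111, 97.2 and 59.7 CPM. Air regions 8, 10, 11 and 12 held 128, 44.5, 87.9 and 159 CPM. All injured regions were above all air regions, while peri-injured region 5 fell inside the injured range.

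In CD45- segments of the same section the injured regions held 799, 179, 344 and 211 CPM of RTS0064300, the peri-injured ones 103, 179.6, 158 and 255 CPM, and the air regions 22.5, 133, 72.4 and 100.3 CPM. Region 2 was the highest in both segment types. Injured and peri-injured regions overlapped through injured regions 3 and 9 and peri-injured regions 6 and 15.

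In the young mutant section, injured CD68+ segments held 2482, 547 and 150.5 CPM of RTS0064300 in regions 1, 2 and 3, and peri-injured ones 341, 58.5 and 158 CPM. Injured CD45- segments held 2195, 3709 and 142 CPM and peri-injured ones 210.3, 134 and 80.1 CPM. Region 3 was within the peri-injured range in both segments and regions 1 and 2 were above it. The order of those 2 regions turned between segments, with region 1 higher in CD68+ and region 2 higher in CD45- segments.

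In the old mutant section, injured CD68+ segments held 1227, 1309 and 550.3 CPM of RTS0064300 and peri-injured ones 397, 59.7 and 103 CPM, with no overlap. Injured CD45- segments held 2254, 1854 and 1116 CPM and peri-injured ones 1702, 120.5 and 86.1 CPM. Peri-injured region 7 again reached into the injured range, here with 100 counts, as it did for RTS0064947 in the same segment.

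**Figure D1:**
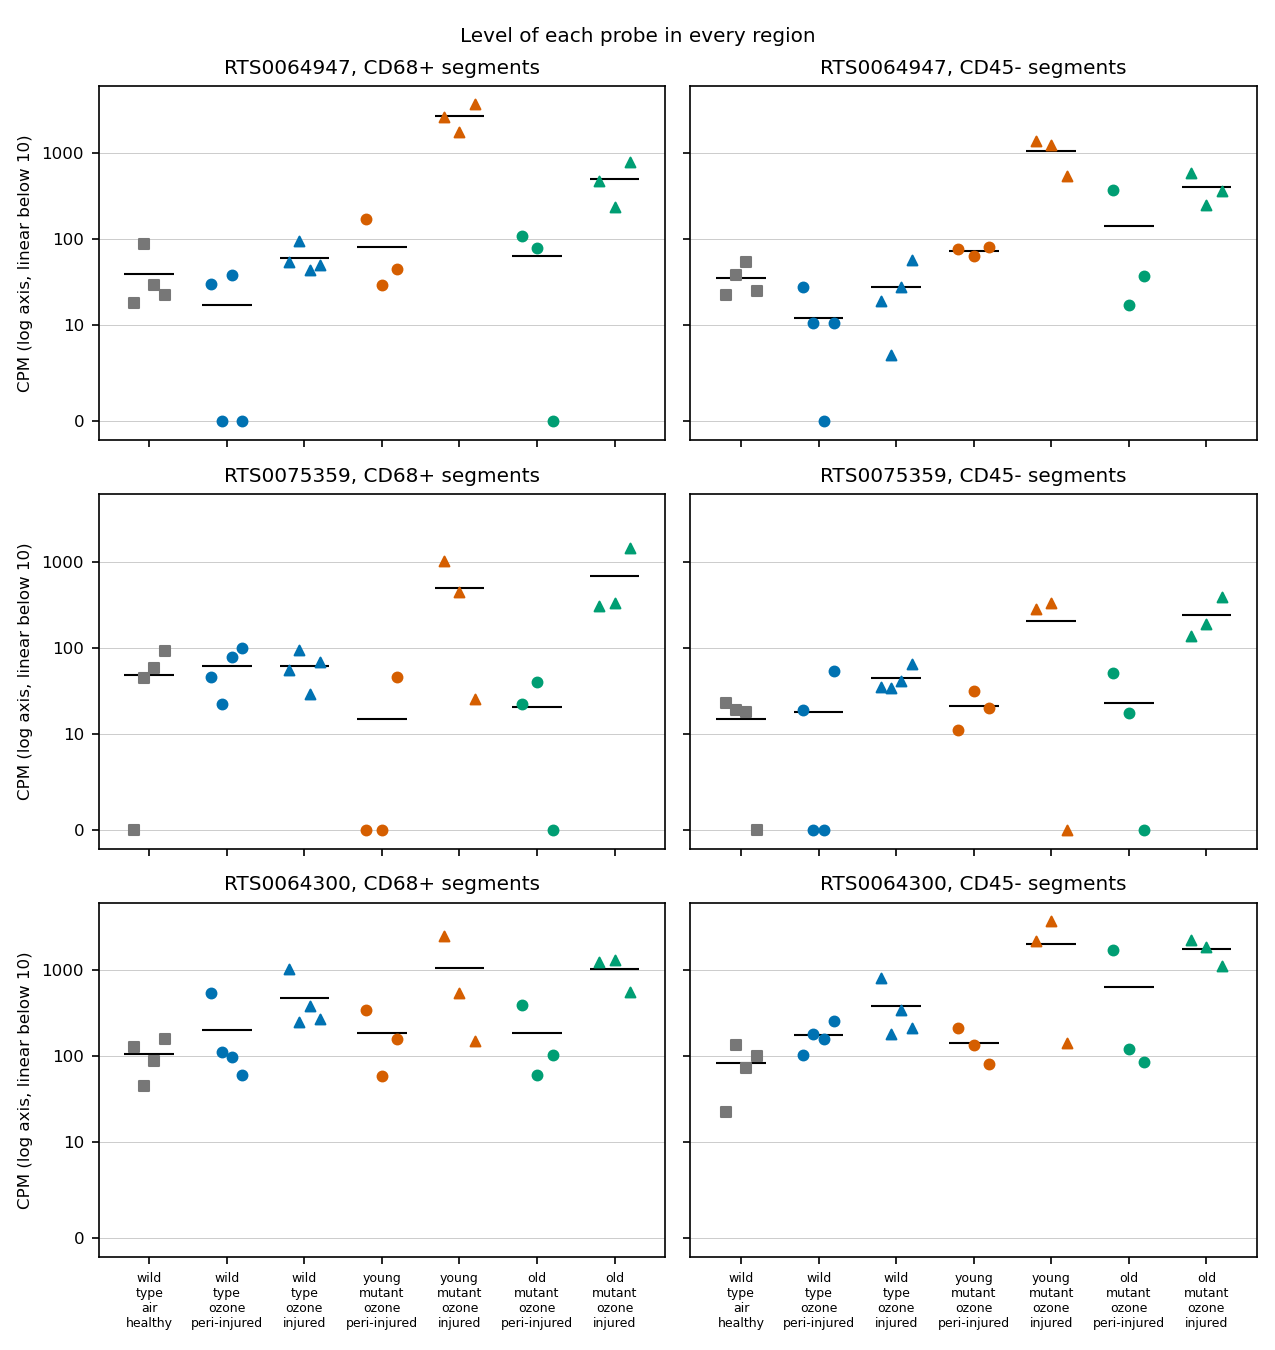
Level of each probe in every region, in CPM on an axis that is logarithmic above 10 and linear below, for CD68+ segments on the left and CD45- segments on the right. Each point is 1 region (squares healthy, circles peri-injured, triangles injured) and the black line is the group mean. The young mutant injured regions of RTS0064947 sit between 1742 and 3712 CPM in CD68+ segments, above all other groups, while for the other 2 probes 1 region of that group is at 150.5 CPM or lower.

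Set in order of group means, few neighbours separated. For RTS0064947 in CD68+ segments the young mutant injured, old mutant injured and young mutant peri-injured groups did not overlap in turn, and each later pair of neighbours did. In CD45- segments only the step from young mutant peri-injured to air regions was free of overlap. For RTS0075359 and RTS0064300, every pair of neighbours in the order overlapped in both segment types, so their group order is not fixed beyond the spread between regions. Their injured mutant groups headed each of these orders. The RTS0075359 means were 684 ± 636 and 497 ± 501 CPM in CD68+ and 237 ± 131 and 203 ± 178 CPM in CD45- segments, for the old and the young mutant section (SD, n = 3 each). For RTS0064300 these means were 1029 ± 416 and 1060 ± 1248 CPM in CD68+ and 1741 ± 577 and 2015 ± 1790 CPM in CD45- segments.

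The injury ratio, injured over peri-injured with counts pooled within a section, put these levels on one scale. For RTS0064947 in CD68+ segments it was 37.3 in the young mutant section (interval 18.7 to 87.1), 8.63 in the old mutant section (4.32 to 19.6) and 3.15 in the wild type ozone section (0.988 to 13.1). In CD45- segments it was 15.9 (11.0 to 23.8), 3.05 (1.98 to 4.86) and 1.97 (0.699 to 6.84). The young mutant section had the highest ratio in both segment types, and the wild type intervals reached below 1.

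For RTS0075359 in CD68+ segments the injury ratio was 30.5 in the young mutant section (interval 8.12 to 257) and 29.5 in the old mutant section (9.78 to 146), from 70 against 2 and 90 against 3 counts. In the wild type ozone section it was 0.968 (0.422 to 2.24). In CD45- segments the ratios were 12.9 (6.29 to 30.6), 12.0 (4.49 to 45.3) and 2.32 (0.99 to 6.30). The young and old mutant ratios lay inside each other's intervals, and the wild type ratios were below the lower ends of both.

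For RTS0064300 the counting interval of the injury ratio lay above 1 in every section. This is no test, since the probe was chosen on this contrast and the intervals leave out the spread between regions. In CD68+ segments the ratio was 7.24 in the young mutant section (interval 4.48 to 12.3), 6.46 in the old mutant section (4.33 to 9.99) and 2.08 in the wild type ozone section (1.47 to 2.98). In CD45- segments it was 16.1 (12.5 to 21.1), 2.98 (2.43 to 3.69) and 2.68 (2.05 to 3.54). The CD45- ratio of the old mutant section includes peri-injured region 7, which held 100 of its 114 peri-injured counts. In the wild type ozone section injured region 2 held 56 of 111 injured counts in CD68+ and 207 of 309 in CD45- segments. Injured and peri-injured regions of that section overlapped in both segment types.

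**Figure D2:**
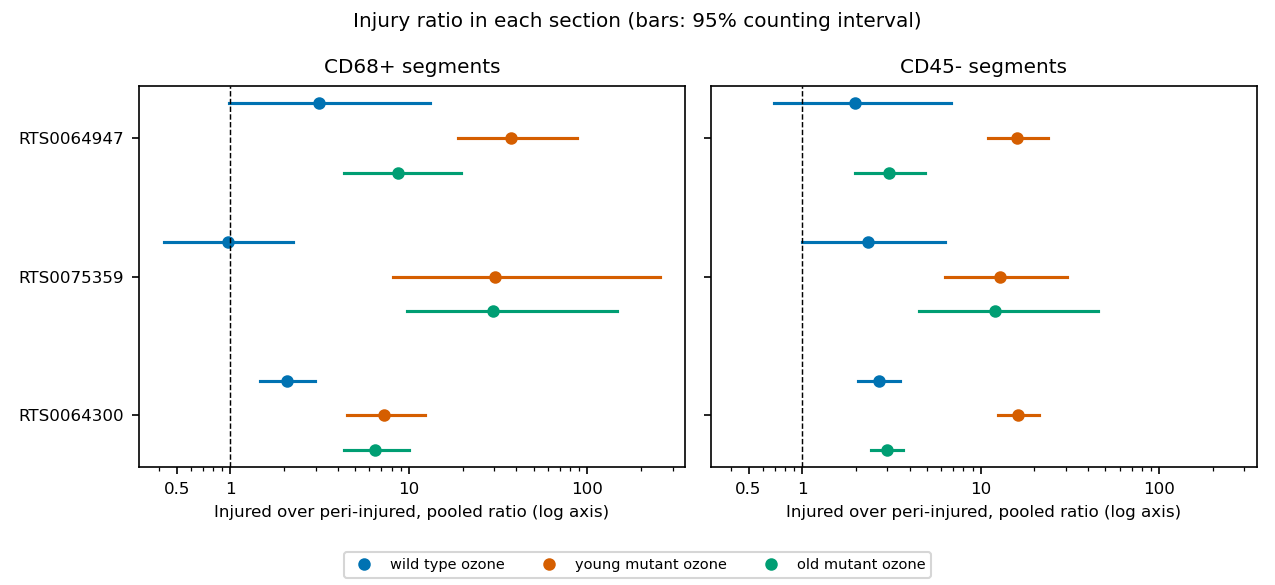
Injury ratio of each probe in each ozone section, as pooled counts in injured over peri-injured regions after scaling, on a log axis, for CD68+ segments on the left and CD45- segments on the right. Points are ratios, bars are 95% counting intervals and the dashed line marks equality. The wild type ozone point lies lowest for every probe, from 0.968 to 3.15. Its bar overlaps that of the old mutant section for every probe in CD45- segments and for RTS0064947 in CD68+ segments.

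In the fit over 3 ozone sections the log2 injury difference in CD68+ segments was 3.77 (SE 0.35) for RTS0064947, 2.87 (SE 0.46) for RTS0075359 and 2.02 (SE 0.25) for RTS0064300. In CD45- segments it was 2.75 (SE 0.31), 2.99 (SE 0.33) and 2.27 (SE 0.25). These SEs rest on a variance moderated over all probes and do not measure the spread between the 3 animals. The log2 pooled ratios of RTS0075359 in CD68+ segments were -0.05, 4.93 and 4.88. These are for the wild type ozone, young mutant and old mutant sections, in that order. In the same fits 0.283% of 3176 probes in CD68+ and 0.204% of 16703 probes in CD45- segments were called higher in injured regions. The 3 probes were chosen on this contrast, so no call is given for them. These sizes lean on single animals and regions. In CD45- segments, leaving out old mutant peri-injured region 7 gave 3.58 for RTS0064947 and 3.05 for RTS0064300, and leaving out the young mutant section gave 1.40 and 1.44. In CD68+ segments RTS0075359 stood at 4.68 without the wild type ozone section and at 1.93 without the old mutant section, and RTS0064947 at 2.66 without the young mutant section.

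Of the 10 injured regions, 10 stood above every peri-injured region of their own section for RTS0064947 in CD68+ segments and 5 did in CD45- segments. The counts were 5 and 6 for RTS0075359, and 6 and 6 for RTS0064300. Among all probes fitted, 0.126% in CD68+ and 0.00599% in CD45- segments had every injured region above every peri-injured region of its section. Only the RTS0064947 count in CD68+ segments can be set beside these shares, and it stems from the contrast that chose the probe. No share was computed for counts of 5 or 6, so how common those are among all probes is not known here.

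RTS0076055, another probe called higher in injured regions, took 7.21% to 15.9% of all counts in the injured CD68+ segments of the young mutant section, which lowers the share left to other probes there. Its share was 2.46% to 2.67% in the CD45- segments of those regions, 0.598% to 2.74% in injured CD68+ segments of the old mutant section and at most 0.213% in the wild type ozone section. With counts set per captured area in place of CPM, the RTS0064947 ratio in CD68+ segments was 36.0 in the young mutant section, 8.85 in the old mutant section and 3.50 in the wild type ozone section. In the CD68+ fit over the ozone sections, leaving out RTS0076055 gave log2 injury differences of 3.76 for RTS0064947 and 2.01 for RTS0064300. With it they were 3.77 and 2.02. RTS0075359 had no value in the fit without RTS0076055.

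The segments were compared to ask in which of the captured compartments each probe was higher. Over all regions, CD68+ segments exceeded CD45- segments by 2.48-fold for RTS0075359 and 1.95-fold for RTS0064947. No difference was called for RTS0064300. Injured regions hold most of the counts of these probes, so the fit over all regions largely repeats the one of injured regions below. Over counts summed per section and segment, with the section as a block, the log2 difference was 1.31 for RTS0075359 (SE 0.20, edgeR adjusted p = 0.000114) and 0.96 for RTS0064947 (SE 0.24, edgeR adjusted p = 0.0230). For RTS0064300 it was -0.23 (95% interval -0.61 to 0.16, edgeR adjusted p = 0.733). Of 14591 probes tested, 1.88% were called higher and 1.10% lower in CD68+ segments, and 2 of these 3 probes were called higher.

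Among injured regions alone, the CD68+ excess was 1.31 on the log2 scale for RTS0075359 (SE 0.23, edgeR adjusted p = 0.000183) and 1.16 for RTS0064947 (SE 0.23, edgeR adjusted p = 0.00114), where 1.83% of 9349 probes were called higher and 1.06% lower. RTS0064300 was at -0.28 (95% interval -0.66 to 0.11, edgeR adjusted p = 0.656). CD68+ exceeded CD45- in 9 of 10 injured regions for RTS0075359, in 7 of 10 for RTS0064947 and in 6 of 10 for RTS0064300. The 9 include young mutant region 3, at 1 count against 0, and wild type ozone region 9, at 67.3 against 64.9 CPM. The share of all probes that reach such tallies was not computed, so they are a description only.

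The excess was not even over sections. For RTS0064947 the pooled CD68+ over CD45- ratio in injured regions was 2.36 in the young mutant section (interval 2.05 to 2.72), 2.35 in the wild type ozone section (1.07 to 5.06) and 1.19 in the old mutant section (0.881 to 1.59). For RTS0075359 it was 2.23 in the young mutant (1.62 to 3.06), 2.23 in the old mutant (1.62 to 3.09) and 1.42 in the wild type ozone section (0.693 to 2.80). RTS0064300 went the other way in both mutant sections, at 0.511 in the young (0.430 to 0.605) and 0.645 in the old one (0.542 to 0.764), and stood at 1.02 in the wild type ozone section (0.816 to 1.28). CD45- segments of the old mutant section held more RTS0064300 than their CD68+ partners in all 3 injured regions. In the young mutant section injured region 2 carried the low ratio, with a CD45- level of 3709 CPM beside 547 CPM in CD68+, and CD68+ was slightly above CD45- in the other 2 injured regions.

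The RTS0064947 call over all regions was lost when any 1 of several sections or regions was left out. Its adjusted p was 0.754 without the young mutant section (log2 difference 0.35), 0.163 without the wild type ozone section (0.89), 0.0545 without young mutant injured region 3 (0.74) and 0.0670 without old mutant injured region 12 (0.88). DESeq2 gave it 0.195. In injured regions it did not pass without the young mutant section (0.68, adjusted p = 0.406) or the wild type ozone section (1.10, adjusted p = 0.220). RTS0075359 passed in all 35 alternatives over all regions, and in injured regions it missed the threshold without young mutant injured region 1 (0.90, adjusted p = 0.0656).

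In peri-injured regions neither probe tested was called different between segments. RTS0064947 had a log2 difference of -0.28 (95% interval -1.09 to 0.54, edgeR adjusted p = 0.846) and RTS0064300 one of -0.19 (-0.84 to 0.46, edgeR adjusted p = 0.874). RTS0075359 held too few counts there to pass the filter. Its pooled CD68+ over CD45- ratio was 3.42 in the wild type ozone (interval 1.27 to 10.1), 0.943 in the young mutant and 0.909 in the old mutant section. In the same order the RTS0064947 ratios were 1.47, 1.01 and 0.419 (interval of the last 0.173 to 0.924). Those of RTS0064300 were 1.32, 1.14 and 0.298 (interval of the last 0.189 to 0.453). Old mutant region 7 held 22 of the 26 CD45- counts of RTS0064947 in that section and 100 of the 114 of RTS0064300. CD68+ was higher in 4 of 10 peri-injured and 1 of 4 air regions for RTS0064947. These tallies were 6 and 3 for RTS0075359 and 4 and 3 for RTS0064300, again without a share over all probes. Of 5594 probes, 2.07% were called higher and 0.894% lower in CD68+ segments. The log2 differences of RTS0064947 and RTS0064300 both turned positive without the old mutant section, at 0.55 and 0.63. That of RTS0064300 also did so without old mutant peri-injured region 7, at 0.48. Whether the segment difference itself changed between injured and peri-injured regions was not tested.

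**Figure D3:**
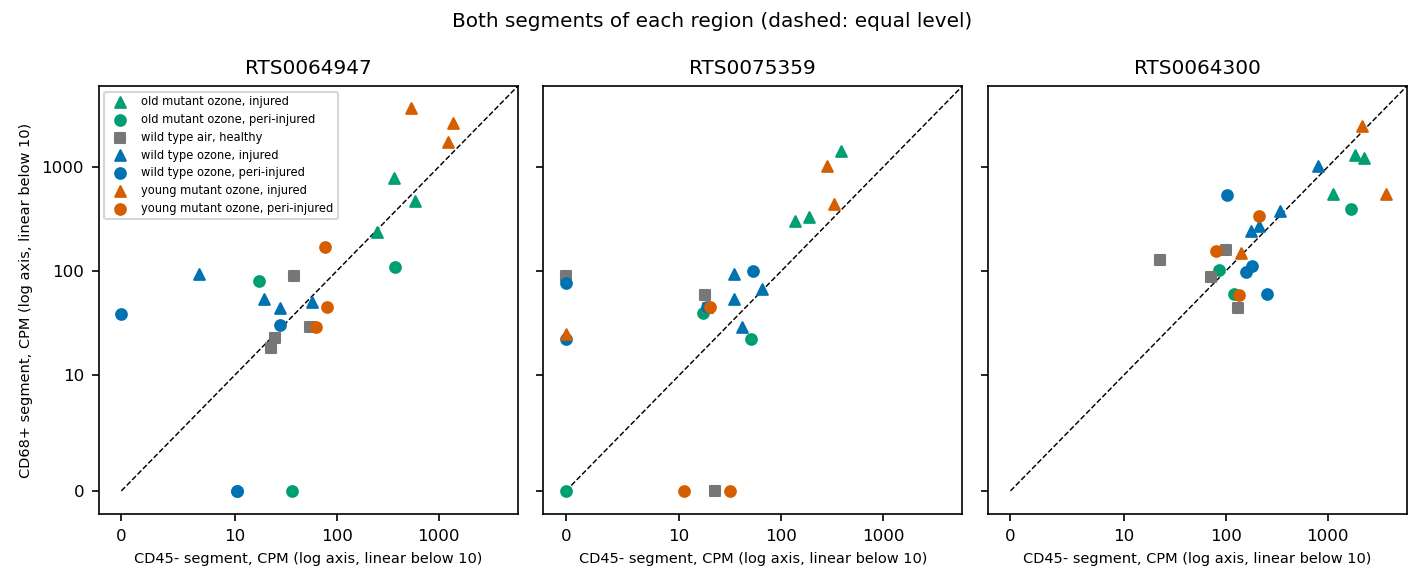
Level of each probe in the CD68+ segment (vertical axis) against the CD45- segment (horizontal axis) of the same region, in CPM on axes that are logarithmic above 10 and linear below. Each point is 1 region, and the dashed line marks equal levels. Of the 10 injured regions (triangles), 9 lie above the line for RTS0075359, 7 for RTS0064947 and 6 for RTS0064300. The 9 include young mutant region 3, at 1 count against 0, and no share over all probes was computed for these tallies.

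With 1 animal per section, sections were compared without a test, by the difference of mean log2 CPM between their regions. A difference was counted where it was at least 1, the regions did not overlap and the probe passed the filter on low counts among the segments compared. RTS0064300 passed that filter in 9 of 12 comparisons, RTS0064947 in 4 and RTS0075359 in 2. Of the 36 values, 15 thus passed the filter and 5 were counted, all of them with injured regions on at least 1 side. Those regions had also served to choose the probes. No share over all probes was computed for the 12 comparisons together, so this tally is a description only.

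Young mutant and wild type injured regions were furthest apart for RTS0064947. The log2 difference was 4.95 in CD68+ segments, where 5.78% of kept probes were counted as higher, and 4.82 in CD45- segments, where 1.34% were. The wild type injured segments held only 3 to 5 counts each in CD68+ and 1 to 7 in CD45- segments. RTS0064947 thus passed the filter through the young mutant injured regions, which had also served to choose it. The shares of kept probes are therefore no background for it. Pooled, these were ratios of 46.7 (interval 27.4 to 86.3) and 46.3 (28.6 to 80.2). Leaving out 1 region at a time gave 4.52 to 5.20 over both segment types, and a prior count of 10 in place of 2 gave 3.64 and 3.58. Both sections compared differ in genotype and in plate.

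RTS0075359 and RTS0064300 were not counted in that comparison, with log2 differences of 1.87 and 0.78 in CD68+ and 0.97 and 1.76 in CD45- segments and overlapping regions. RTS0075359 also failed the filter there. These values moved with each young mutant injured region. Without region 3 the differences were 3.10 and 2.52 for RTS0075359 in CD68+ and CD45- segments and 3.09 for RTS0064300 in CD45- segments, and all of these would be counted, while RTS0064300 in CD68+ segments reached 1.68 and would not. Without region 1, RTS0064300 in CD68+ segments was at -0.03 and RTS0075359 at 1.14 in CD68+ and 0.24 in CD45- segments. Without region 2, RTS0075359 was at 0.18 and RTS0064300 at 0.90 in CD45- segments.

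RTS0064947 was lower in old than in young mutant injured regions. The log2 difference was -2.53 in CD68+ segments, with no overlap, where 5.78% of kept probes were counted as lower. In CD45- segments it was -1.47, where 0.827% were. The injured regions compared here had also served to choose RTS0064947, so these shares are no background for it. The CD45- count depends on scaling, since with the factors of all 48 segments old mutant region 8, at 589.9 CPM, passed young mutant region 3, at 541 CPM, and the difference of -1.32 was no longer counted. RTS0075359 was at 0.75 and 0.93 and RTS0064300 at 0.51 and 0.48, in CD68+ and CD45- segments, with overlapping regions. Without young mutant region 3 all 4 of these values turned negative, between -0.36 and -0.80, and without old mutant region 12 RTS0075359 in CD68+ segments was at -0.02. Age and any difference between these 2 animals cannot be told apart.

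In the comparison of wild type ozone injured with air regions, RTS0064300 was counted in CD68+ segments, at a log2 difference of 1.39, where 7.51% of kept probes were counted as higher. The air CD68+ segments held 2 to 7 counts each, so RTS0064300 passed the filter through the injured ones, and that share is no background for it. Its pooled ratio, on factors of all 48 segments, was 4.40 (interval 2.69 to 7.58), on a scale where the median kept probe differed by 0.39 on the log2 scale. With a prior count of 10 in place of 2 the difference was 0.87 and no longer counted. In CD45- segments the difference of 1.48 came with an overlap and was not counted, where 4.08% of kept probes were, and the pooled ratio was 5.51 (3.34 to 9.77). It would be counted with upper quartile factors, at 1.58, and without any 1 of the 4 air regions, at 1.24 to 1.90, while without injured region 2 it was 0.98. With the factors of all 48 segments the regions also did not overlap and the difference was 1.91, but the median kept probe then differed by 0.50, against 0.04 with the factors of the segments compared. RTS0064947 and RTS0075359 gave 14 and 14 counts in injured CD68+ segments against 7 and 8 in air, ratios of 1.51 (0.569 to 4.41) and 1.32 (0.516 to 3.63).

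Among peri-injured regions only 3 of 18 values of these probes passed the filter on low counts, all of RTS0064300 in CD45- segments, and the other 15 could not be counted whatever their size. None of the 3 was counted, where 4.12% of the 4567 values of kept probes were, so little can be read from that. Against air, RTS0064300 had log2 differences of 0.23 in CD68+ segments, where it failed the filter, and 0.58 in CD45- segments, with pooled ratios of 2.12 (interval 1.22 to 3.81) and 2.06 (1.18 to 3.81). Without peri-injured region 5, which held 35 of its 48 counts, the CD68+ difference was -0.25. RTS0064947 in CD45- segments was at 77.5, 63.3 and 80.1 CPM in the young mutant peri-injured regions, above the 28.1 CPM or less of the wild type ones, but it failed the filter on low counts, with 30 against 5 counts. The log2 difference there was 1.79, and the pooled ratio was 5.76 (interval 2.21 to 19.0).

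The 3 probes were also set beside all others by the Pearson r of log2 CPM over the 24 segments of a type, among probes with a mean of at least 50 CPM. These segments share animals, plates and the injury contrast that chose the probes, so r is a description. RTS0064947 was most like RTS0076055 in both segment types, with r = 0.93 in CD68+ and 0.94 in CD45- segments. RTS0076072 (r = 0.90) and RTS0063348 (r = 0.82) followed in CD68+, and RTS0063348 (r = 0.87) and RTS0076190 (r = 0.86) in CD45- segments.

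RTS0075359 had looser neighbours in CD68+ segments, led by RTS0065680 (r = 0.73), RTS0076517 (r = 0.63) and RTS0064300 (r = 0.62). In CD45- segments RTS0064300 was its closest (r = 0.82), before RTS0080807 and RTS0062207 (r = 0.78 each). RTS0064300 was most like RTS0066720 (r = 0.79), RTS0075088 and RTS0075703 (r = 0.72 each) in CD68+ segments. In CD45- segments it was most like RTS0075924 and RTS0080807 (r = 0.91 each) and RTS0075742 (r = 0.89). Between RTS0064947 and the other two, r was 0.62 and 0.56 in CD68+ and 0.71 and 0.74 in CD45- segments, for RTS0075359 and RTS0064300. RTS0080807 was among the 3 closest probes of both RTS0075359 and RTS0064300 in CD45- segments.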

How the data were processed

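The authors deposited, for each segment, counts of probe barcodes from which reads with a repeated molecular identifier had been removed. Per the file headers this was done with the GeoMx NGS Pipeline 2.3.4, and the submitters' processing notes name mm10. Barcodes not listed were set to 0. Of 20238 identifiers, 20175 in 1 continuous range of numbers were analysed and the other 63 left out of library sizes. Reads beyond the first per molecule were 79.8% to 95.3%. Worksheets give a captured area per segment as a deposited signal value, with no unit printed.

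The members and lists were chosen with earlier results of these data known. Sections were the replicates, so counts were added up within each section for each segment type or region type. Probes passing filterByExpr (minimum count 10) were tested with edgeR 4.0.16 in R 4.3.3, using TMM factors, a section block and a two-sided quasi-likelihood test, with Benjamini-Hochberg adjustment over all probes tested and a threshold of 0.05. The SE is the log2 difference over the square root of F. That SE and the p-values rest on a variance that edgeR moderates over all probes, so they do not measure the spread between these animals alone. The fit over all regions holds 4 animals and the other fits 3, with 1 per condition. Pooled ratios divide summed counts by summed scaled library sizes, with exact conditional binomial intervals, which cover counting error only. Comparisons of 1 section with 1 section used a prior count of 2 and TMM factors of the segments compared, while levels use factors of all 48 segments. Over those 12 comparisons the median log2 difference of all kept probes was -0.06 to 0.06 with the former and -0.39 to 0.50 with the latter. Probes were named by a rule of likeness (the 3 highest r per probe and segment type). Both segments of a region come from 1 animal and 1 place, so region numbers pair them. Their deviations from group means had a median correlation of 0.0194, against -0.0043 for other regions of the group, over 4637 probes. Alternatives were DESeq2 1.42.0, other size factors, no filter, a prior count of 10, counts without RTS0076055, regions as libraries, counts per area, and each region or section left out, and the use of all 48 factors in the section comparisons was added after seeing the data. Simulated counts with known changes were run through the same fit. They were drawn from 1 mean profile without differences between sections, so that run says nothing about precision between these animals.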

Additional observations from a re-analysis of the deposited data

Results flagged for a closer look

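Among 18 groups of 4 regions tested for a value that stands apart, 2 gave one. The nominal rate of about 1 in 20 is for independent values with a normal spread. Many of these levels rest on few counts and the groups share regions, so that rate need not hold here. For RTS0064947, healthy region 10 of the wild type air section held 88.97 CPM in its CD68+ segment against 29.3 CPM as the next highest and 18.3 CPM as the lowest, and it rests on 4 counts. For RTS0064300, the wild type ozone section had a peri-injured region, number 5, that held 534 CPM in its CD68+ segment, from 35 counts, against 111 CPM as the next highest and 59.7 CPM as the lowest. The CD45- segment of that region held 103 CPM, the lowest of the 4 peri-injured regions.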

How the results depend on the processing

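The calls of RTS0075359 and RTS0064947 between segments, and the alternatives that end them, stand beside their values in the report. With regions as libraries and the section as a block RTS0064947 over all regions had 0.81 (adjusted p = 0.111), and with the region as replicate block, so that both segments stay paired, 0.68 (edgeR adjusted p = 0.00208). These fits take regions of 1 animal as replicates. Leaving out 1 section or region moved RTS0064300 over all regions from -0.23 to between -0.57 and 0.069. It was positive when the old mutant section (0.01) or young mutant injured region 2 (0.069) was left out. Among peri-injured regions RTS0064947 ranged from -0.67 to 0.55 and RTS0064300 from -0.76 to 0.63, both highest without the old mutant section. RTS0064300 was 0.48 without old mutant peri-injured region 7. None of these values passed the test. The causes were not tested.

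Of all probes, 435 differed between segments over all regions, 270 in injured and 166 in peri-injured regions, where DESeq2 called 137, 65 and 28. Regions as libraries gave 930, 422 and 293 with the section as a block and 847, 412 and 283 with the region as replicate block. Leaving out 1 section or region gave 138 to 494, 24 to 334 and 0 to 227. The lowest counts came without the wild type ozone section (138 and 24) and, for peri-injured regions, without the young mutant section, where edgeR called 0 and 568 probes had an unadjusted p under 0.05. Other size factors and no filter left all 3 counts within 1.5 times.

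The mean log2 injury difference of the 3 probes was 2.89 in CD68+ segments, 2.28 to 3.79 with 1 section or region left out, and 2.67 in CD45- segments, 1.75 to 3.25. In CD68+ segments the mean could not be had in 9 of 23 such fits, because RTS0075359 (8) or RTS0064947 (1) failed the filter, nor without RTS0076055, so that range rests on 14 fits. Between sections, 5 values were counted, 6 with upper quartile factors and 4 with a prior count of 10. With 1 region left out the total was 5 to 8, the highest without young mutant injured region 3. No share over all probes was computed for these totals. Depth limits RTS0064947 and RTS0075359 in wild type tissue: 13 or fewer counts stand behind each of their CD68+ peri-injured and air groups.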
